A study of Mus musculus with 10 samples.

Results

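The replication-dependent histone genes were taken as every row of the expression table whose symbol is H2ac, H2bc, H3c or H4c followed by a number. They encode the core histones H2A, H2B, H3 and H4. The rule gave 54 of the 27919 gene symbols in the table, of which 16 were H2ac, 14 H2bc, 12 H3c and 12 H4c genes. Their levels were compared between B16F10 tumors, grown from a mouse melanoma line, that over-expressed Ly86, a secreted partner of the receptor Cd180 (Ly86 tumors), and tumors of that line with the vector (Vector tumors). All mice of both groups had been given anti-PD-1 together with anti-CTLA4 in 4 rounds, and the tumors were frozen in liquid nitrogen at harvest, so no tumor without antibody treatment was part of the comparison. There were 4 Ly86 tumors and 3 Vector tumors. Ly86 tumor 1 and Vector tumors 1 and 2 each gave 2 libraries, called pieces here, which makes 10 libraries. The labels give no strain, sex or age of the mice, no promoter of the construct and no count of cell clones, and they do not say that each tumor grew in a different mouse. The p-values therefore reflect the scatter among these tumors, which may be technical in part.

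Cells make most of their core histones while they copy their DNA, and the genes are clustered and present in many copies. Unlike other mRNAs, theirs mostly end without a poly(A) tail: the protein Slbp binds a stem-loop after the stop codon, and the U7 small nuclear ribonucleoprotein with its proteins Lsm10 and Lsm11 directs the cut behind it. Npat, a cyclin E-Cdk2 substrate, switches the genes on as S phase begins. The libraries here were made from polyadenylated RNA, so a histone mRNA was counted only as far as poly(A) selection kept it. The values below are levels in the selected RNA, and total histone mRNA was not measured.

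The stem-loop is shown first because it is the feature that sets these mRNAs apart from others. Of the 54 genes, 50 were matched to coding transcripts of GENCODE M21, an annotation of the GRCm38 build, which is not the mm39 build named in the submitters' processing notes. H2ac25, H2bc24, H2bc27 and H4c16 were not matched. A 16-base match to the histone stem-loop consensus stood within 100 bases after the stop codon in 37 of the 50 genes (74.0%), against 51 of 21699 protein-coding genes of the annotation (0.235%). It began 21 to 58 bases after the stop codon, with a median of 31. The genes held 8 distinct stem-loops, the commonest of them in 20 genes. The stem-loops of the 1 or 2 most abundant genes of each class that had one are given with 5 bases on either side, 5′ to 3′ on the strand of the gene, with the stem-loop in capitals. They lie, in GRCm38, at chr3:96239779-96239804 (minus strand) for H2ac19, chr3:96246027-96246052 (plus) for H2ac18, chr13:22040961-22040986 (minus) for H4c9, chr13:23531453-23531478 (plus) for H4c8, chr13:23571838-23571863 (plus) for H2bc8, chr13:23745042-23745067 (minus) for H3c3 and chr13:23535884-23535909 (plus) for H3c8, each in the part of the only exon that follows the stop codon.
H2ac19: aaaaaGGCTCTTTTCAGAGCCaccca
H2ac18: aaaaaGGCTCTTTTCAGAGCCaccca
H2bc8: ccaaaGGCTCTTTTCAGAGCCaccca
H3c3: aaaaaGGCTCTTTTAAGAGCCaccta
H3c8: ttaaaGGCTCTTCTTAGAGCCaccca
H4c8: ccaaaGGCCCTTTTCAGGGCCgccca
H4c9: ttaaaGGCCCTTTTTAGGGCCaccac
H2ac19 and H2ac18 carried the same 26 bases, and H2bc8 shared their stem-loop with other bases before it. The stem-loop of H4c8 was also that of 4 other H4c genes, and that of H4c9 also stood in H4c14.

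A stem-loop was not found in 13 of the 50 matched genes. In 10 of these the annotated transcript ended within 37 bases of the stop codon, so the place where a stem-loop would stand was not in the annotated sequence. The other 3, H2bc4, H2bc21 and H2bc23, had long annotated ends of 742, 2192 and 823 bases after the stop codon. In H2bc4, the most abundant of all the histone genes here, the closest 16 bases in the 100 bases after the stop codon differed from the consensus at 6 positions, and its annotated transcript has 2 exons. In H2bc21 and H2bc23 the closest 16 bases differed at 4 positions.
H2bc4: tgacatcgtttgtacc
H2bc21: tgatcttttaaagtct
An AATAAA or ATTAAA poly(A) signal stood in the last 50 bases of the H2bc21 transcript and of the H4c9 transcript, which runs 330 bases past its stem-loop. None stood there in the annotated H2bc4, H2ac18 and H2ac19 transcripts. A long annotated end did not go with a high level among the genes that had a stem-loop: the 13 whose transcripts run more than 200 bases past it had a median level of 0.407 TPM, and the other 24 a median of 1.02 TPM. Here TPM is a gene's share of the transcripts of a library on the usual TPM scale, a level that allows for transcript length, and a gene's level is its mean over the 7 tumors with pieces averaged.

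**Figure D1:**
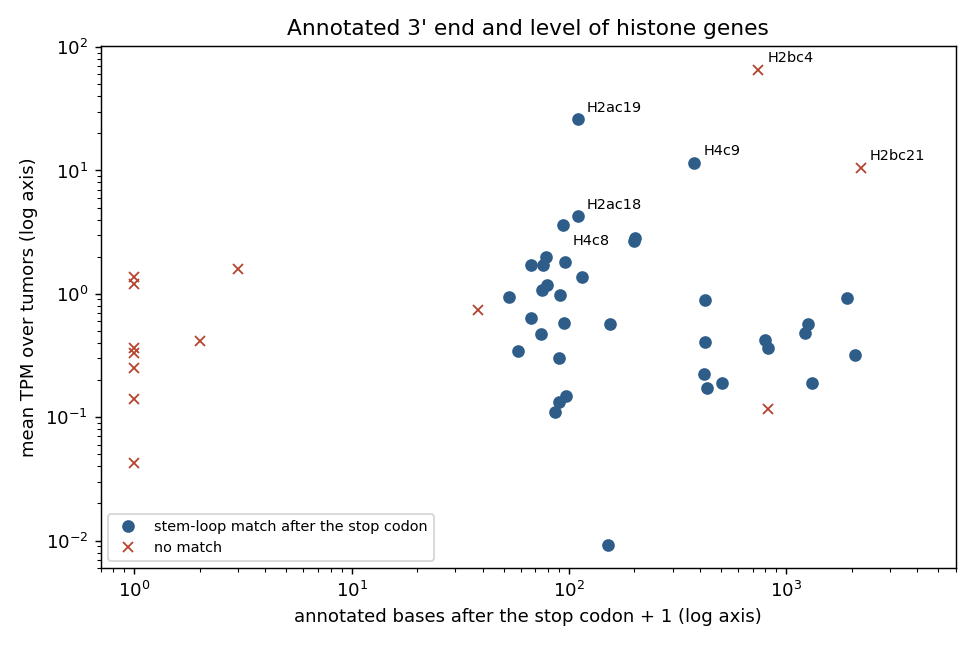
Mean TPM over the 7 tumors (log axis) of the histone genes matched to an annotated transcript, plotted against the annotated bases after the stop codon plus 1 (log axis); each mark is 1 gene, a circle with a stem-loop match and a cross without. H2bc4 and H2bc21, which have long ends and no match, lie among the most abundant genes, and H2ac19, with a stem-loop and a short end, lies beside them.

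The promoters were also described, since they are a shared feature that the choice by symbol did not use. RefSeq windows of GRCm38.p6, from 250 bases before to 50 after the start, were on hand for 45 of the genes, in 46 windows. The octamer ATTTGCAT, searched on both strands like the other motifs, was in 6 of 11 H2bc windows and 5 of 15 H2ac windows, in 0 of 10 H3c and 0 of 10 H4c windows, and in 1.74% of all 32851 windows. CCAAT was in each of the 15 H2ac, 11 H2bc and 10 H3c windows and in 3 of 10 H4c windows, against 37.4% of all windows. TATAAA was in 24 of the 46 windows (52.2%), against 13.6% of all. In none of the 46 windows did 2 different motifs share bases. A match describes the letters only and is not evidence of binding.

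Among the genes with a window, an H2ac and an H2bc gene lie head to head in 5 places, so that their windows overlap by 252 to 279 bases. Pairs that involve a gene without a window could not be found, and the abundant genes H2bc4, H2bc21 and H2ac25 had none. The bases between the 2 starts of the pairs H2ac8 and H2bc8 (chr13:23571221-23571399, GRCm38.p6, plus strand) and H2ac12 and H2bc12 (chr13:22035644-22035820, plus strand) show the arrangement. The H2ac gene starts to the left and the H2bc gene to the right, and the capitals mark CCAAT (or ATTGG, its reverse complement), ATTTGCAT and TATAAA.
H2ac8 to H2bc8: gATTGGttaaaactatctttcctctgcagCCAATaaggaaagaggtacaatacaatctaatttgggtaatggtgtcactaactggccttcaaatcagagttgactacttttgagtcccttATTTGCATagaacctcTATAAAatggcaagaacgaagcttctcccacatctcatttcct
H2ac12 to H2bc12: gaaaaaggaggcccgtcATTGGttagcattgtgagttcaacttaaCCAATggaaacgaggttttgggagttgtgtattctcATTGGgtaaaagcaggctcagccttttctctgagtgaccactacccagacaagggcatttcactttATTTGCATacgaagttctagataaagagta
In both pairs the octamer lay nearer to the start of the H2bc gene than to that of the H2ac gene. Since it lies in the windows of both genes of a pair, it was counted above for the H2ac and for the H2bc class. The windows of H2bc6 differed too, with the octamer in only part of them.

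The deposited table holds log2(TPM + 1), a scale read from the values. Since TPM is a share of the library, read depth cannot be recovered from it, and no counting interval could be computed. Between 19304 and 21882 genes were above 0 in a library. The defining markers of pigment cells (Pmel, Tyr, Tyrp1, Dct, Mlana, Sox10 and Mitf) were all above 0 in each library and summed to between 9752 and 19840 TPM. Markers of other cell types were all above 0 in each library too. The 10 macrophage markers summed to 1776 to 3589 TPM in Ly86 libraries and 354.9 to 5031 in Vector libraries. The ranges for 8 T cell markers were 43.0 to 93.0 and 5.17 to 137 TPM, and for 7 fibroblast markers 898 to 2601 and 92.4 to 4546 TPM. The high ends of the Vector ranges came from the first piece of Vector tumor 2, which stands apart from the other Vector libraries. Ly86 mRNA itself was at 49.15 to 81.92 TPM in the Ly86 libraries. It was at 6.24 and 9.88 TPM in the pieces of Vector tumor 1 and at 30.32 TPM in Vector tumor 3. In Vector tumor 2 it was at 80.86 TPM in the first piece, inside the Ly86 range, and at 7.85 TPM in the second. In bulk tumor RNA, fewer cells of a type and less RNA per cell cannot be told apart.

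Histone mRNA was low in the selected RNA and was carried by a handful of genes. The 54 genes together summed to 182, 211, 210, 159 and 167 TPM in the 5 Ly86 libraries (both pieces of tumor 1, then tumors 2, 3 and 4), and to 131, 143, 204, 159 and 143 TPM in the 5 Vector libraries (both pieces of tumors 1 and 2, then tumor 3). Every list of libraries below keeps these orders. The H2bc genes gave a median of 54.2% of the sum, the H2ac genes 28.1%, the H4c genes 12.9% and the H3c genes 4.98%. H2bc4 by itself gave between 26.7% and 45.3% of the sum in a library.

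The median gene had a mean of 0.57 TPM, and 26 of the 54 had a mean under 0.5 TPM. Only 5 reached a mean of 5 TPM: H2bc4, H2ac19, H2ac25, H4c9 and H2bc21. Between 34 and 41 of the genes were above 0 in a library, and 15 were above 0 in all 10. Many low genes were listed at 0 in some libraries and not in others; H4c12, for instance, was listed at 0 in 9 libraries and at 5.05 TPM in the second piece of Ly86 tumor 1. H4c17 was at 3.27 and 5.85 TPM in the pieces of Ly86 tumor 1 and 4.16 TPM in the first piece of Vector tumor 2, and was listed at 0 in the other 7 libraries. Genes with a mean of at least 1 TPM over the tumors were tested, which 19 histone genes passed (7 H2ac, 6 H2bc, 2 H3c and 4 H4c) and 35 did not. The genes just under that level were H3c1 at 0.976, H4c17 at 0.949 and H2bc6 at 0.929 TPM, and those just over it were H4c6 at 1.07, H2bc12 at 1.17 and H2ac13 at 1.21 TPM.

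**Figure D2:**
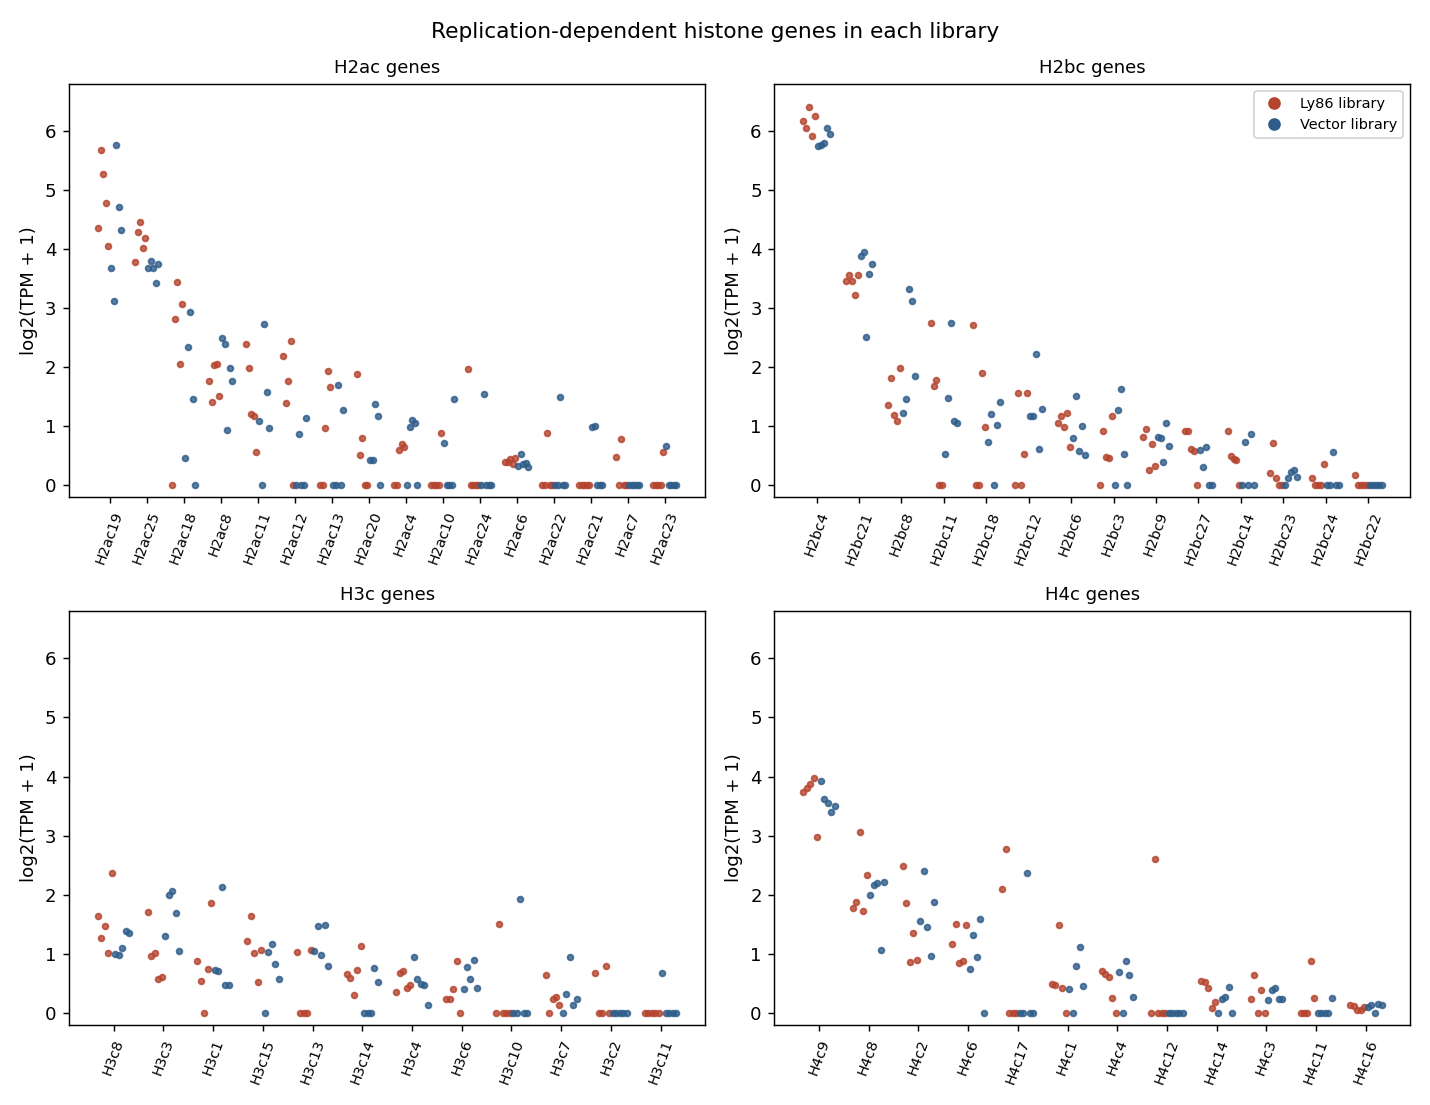
Level of each of the 54 histone genes as log2(TPM + 1) in every library, by class and in falling order of the mean TPM; each point is 1 library, red for Ly86 and blue for Vector. H2bc4 is the highest gene in every library, and many low genes sit at 0 in some libraries and well above it in others.

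The summed level of each class was compared between the groups as a description, without a test, because the sums were chosen with earlier results of these data known. The H2ac sum was 48.7, 81.9, 79.6, 57.3 and 47.0 TPM in the Ly86 libraries and 32.6, 34.4, 85.0, 44.4 and 39.3 TPM in the Vector libraries. The first piece of Vector tumor 2 was the highest library of all, so the groups overlapped. On the log2(TPM + 1) scale, with pieces averaged, the H2ac sum was 5.95 ± 0.31 (SD, n = 4) in Ly86 and 5.47 ± 0.44 (SD, n = 3) in Vector tumors, a difference of 0.48 (SE 0.30, 1.39-fold). The difference was 0.25 when the divided tumors were represented by their first pieces, 0.71 by their second pieces, 0.63 without the first piece of Vector tumor 2, 0.73 without Vector tumor 2 and 0.30 without Vector tumor 1. Ly86 tumors were higher in each of these settings, and the size of the difference depended on the pieces and tumors used.

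Within the divided tumors the H2ac sum stepped in the direction of the macrophage and fibroblast markers, and not always in that of the T cell markers. In Vector tumor 2 the H2ac sum was 85.0 TPM in the first piece and 44.4 TPM in the second, and the macrophage markers summed to 5031 and 354.9 TPM. In Ly86 tumor 1 the H2ac sum was 48.7 and 81.9 TPM and the macrophage sum 1776 and 3589 TPM. In Vector tumor 1 the H2ac sum was 32.6 and 34.4 TPM, a smaller step, with macrophage sums of 362 and 595 TPM. The fibroblast sums of the same pieces were 4546 and 92.4 TPM in Vector tumor 2, 1013 and 1699 TPM in Ly86 tumor 1, and 116 and 401 TPM in Vector tumor 1. The T cell sums were 137 and 21.97 TPM in Vector tumor 2 and 5.17 and 5.52 TPM in Vector tumor 1, but 90.0 and 85.0 TPM in Ly86 tumor 1, where the H2ac sum stepped the other way. Pigment cell sums were 9752 and 18796 TPM in Vector tumor 2 and 13986 and 14567 TPM in Ly86 tumor 1. In Vector tumor 1 they were 17115 and 17251 TPM. In Ly86 tumors 2, 3 and 4 and Vector tumor 3, of 1 library each, the H2ac sums were 79.6, 57.3, 47.0 and 39.3 TPM. Their macrophage sums were 2494, 2092, 2581 and 1536 TPM, and their fibroblast sums 898, 1897, 2601 and 708 TPM. Across these tumors neither marker sum kept the order of the H2ac sum. Between the groups, all 10 macrophage, all 8 T cell and all 7 fibroblast markers were higher in Ly86 tumors on average, with median log2 differences of 1.27, 1.18 and 1.5, while 3 of the 7 pigment cell markers were higher and 4 lower, with a median of -0.032. The part of these cell types in the histone results was not tested.

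The other classes differed less between the groups. The H2bc sum was 97.9, 87.5, 99.5, 75.4 and 94.6 TPM in the Ly86 libraries and 71.8, 79.0, 81.6, 90.0 and 80.8 TPM in the Vector libraries, with a log2 difference of 0.16 (SE 0.10). This difference rested on H2bc4: without it the H2bc sum had a log2 difference of -0.27 (SE 0.17). The H4c sum was 25.6, 33.1, 25.4, 21.2 and 13.9 TPM in the Ly86 libraries and 21, 21.1, 23.2, 15.9 and 17.7 TPM in the Vector libraries, a log2 difference of 0.16 (SE 0.23). Ly86 tumor 4 held the lowest H4c sum of all libraries and the second piece of Ly86 tumor 1 the highest. The H3c sum was 9.78, 8.04, 5.18, 5.37 and 11.1 TPM in the Ly86 libraries and 6.02, 8.88, 14.5, 8.87 and 5.23 TPM in the Vector libraries, a log2 difference of -0.058 (SE 0.37). Both groups held libraries near 5 TPM and libraries above 8 TPM, and the sign of the difference turned to 0.051 without the first piece of Vector tumor 2. Over all 54 genes the difference was 0.25 (SE 0.15, 1.19-fold), and the tumors of the groups overlapped for each class and for the whole.

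**Figure D3:**
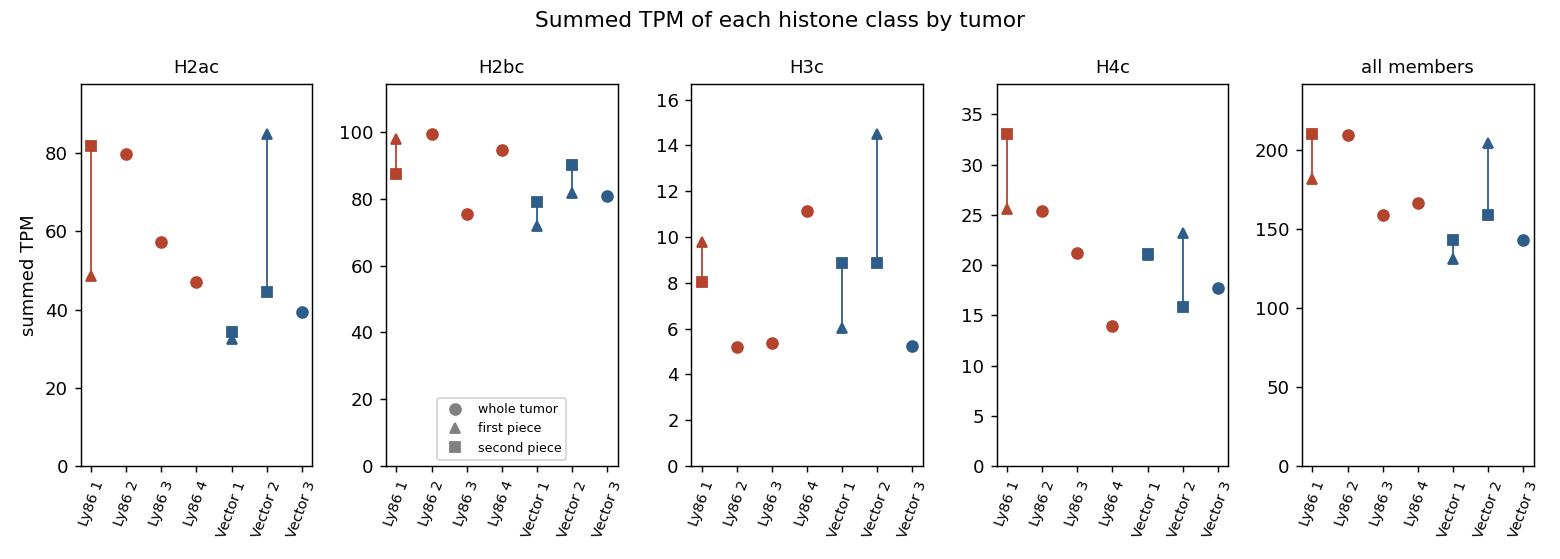
Summed TPM of each histone class and of all 54 genes by tumor (red Ly86, blue Vector); circles are tumors with 1 library, and a line joins the first (triangle) and second (square) pieces of a divided tumor. The H2ac points of the Vector libraries run from 32.6 to 85.0 TPM and span the Ly86 points, and no class separates the groups.

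None of the 19 tested histone genes passed the adjusted threshold of 0.05 in limma, which fits a linear model to every gene and shares the estimate of spread between genes; 0 of the 14556 genes tested passed it (0%). The smallest adjusted p of all genes was 0.393 (limma, Benjamini-Hochberg). At an unadjusted p under 0.05, 1 histone gene was higher in Ly86 tumors and 0 were lower, against 5.78% of all tested genes higher and 4.97% lower. The tumors of the groups did not overlap for 1 histone gene, higher in Ly86, and for 0 lower in Ly86, against 4.71% and 5.75% of all tested genes. The differences of the 19 genes ran from -0.68 to 1.3 with a median of 0.10, and 12 were above 0; over all tested genes the median was -0.037 and 43.8% were above 0. With quantile normalization, and also without Ly86 tumor 2 or without Vector tumor 3, 10 of the 19 were above 0 and 9 below. By class, 6 of 7 H2ac, 2 of 6 H2bc, 1 of 2 H3c and 3 of 4 H4c genes were above 0 (5, 1, 1 and 3 with quantile normalization). Without the filter on the mean TPM, 9 of 16 H2ac, 9 of 14 H2bc, 5 of 12 H3c and 8 of 12 H4c genes were above 0. H2ac12, H2ac13 and H4c6 averaged under 1 TPM in the Vector tumors and so passed that filter through the Ly86 tumors. H2bc12 and H3c3 averaged under 1 TPM in the Ly86 tumors and passed it through the Vector tumors. The signs of these genes thus depend on the filter. In what follows each difference is Ly86 minus Vector on the log2(TPM + 1) scale, which understates the change of low genes, and each adjusted p is from limma.

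**Figure D4:**
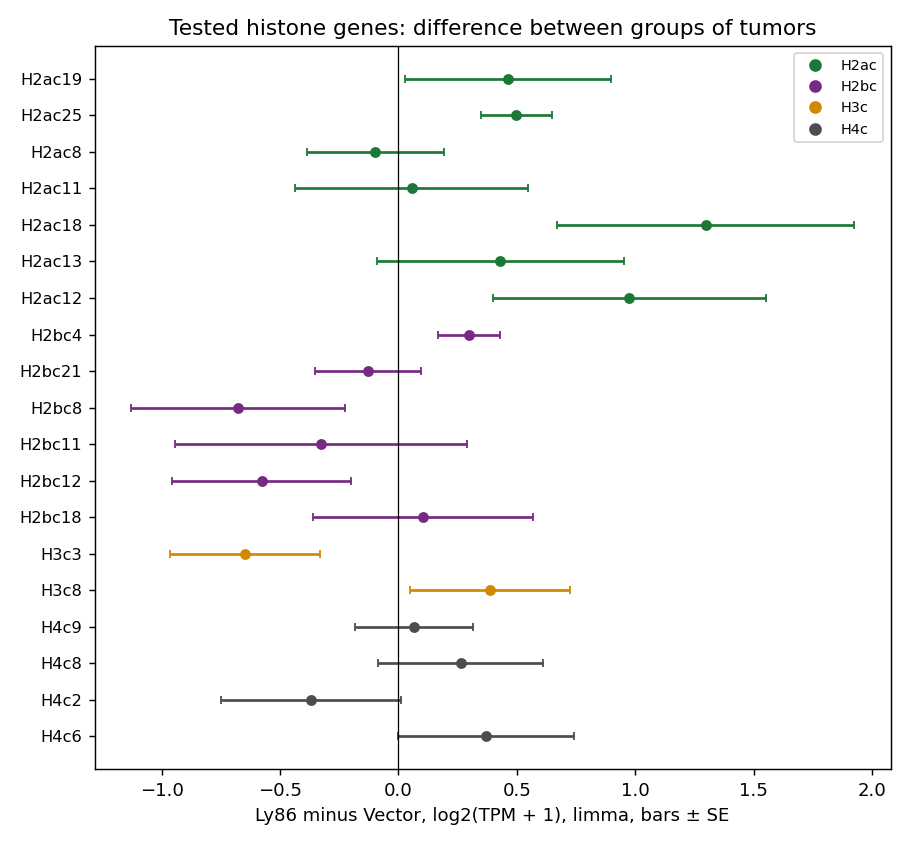
Difference of the mean log2(TPM + 1), Ly86 minus Vector, of the 19 tested histone genes as points with bars of 1 standard error (limma), colored by class. The differences lie on both sides of 0, from -0.68 for H2bc8 to 1.3 for H2ac18, and that of H2ac25 has the smallest error of the H2ac genes.

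H2ac25, an H2A gene, was the histone gene whose tumors did not overlap. Its level was 12.7, 18.5, 21.1, 15.2 and 17.3 TPM in the Ly86 libraries and 11.8, 12.8, 11.8, 9.79 and 12.4 TPM in the Vector libraries. All 4 Ly86 tumors were above all 3 Vector tumors, although the first piece of Ly86 tumor 1 by itself was below the second piece of Vector tumor 1. The means were 4.17 ± 0.21 (SD, n = 4) and 3.68 ± 0.11 (SD, n = 3), a difference of 0.50 (SE 0.15, unadjusted p = 0.0104, adjusted p = 0.437, limma). The difference stayed between 0.40 and 0.58 in all alternatives, but with the first pieces only its unadjusted p was 0.0586 (adjusted p = 1, limma), and the histone gene higher at an unadjusted p under 0.05 was then H2bc4 instead.

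H2ac19 and H2ac18 lie side by side on chromosome 3 and encode H2A. Every 100-base stretch of the annotated H2ac19 transcript also occurs in another histone gene, H2ac18, and 88.1% of the stretches of H2ac18 occur in H2ac19, so they can share reads and their separate values are uncertain. The same limit holds for other genes: 18 of the matched genes had over 50% of their stretches in another histone gene. Among them were the tested genes H2ac12 (87.9%), H2ac13 (82.0%), H2ac11 (76.2%) and H2bc12 (70.8%). H2ac19 was at 19.4, 50.4, 37.8, 26.4 and 15.6 TPM in the Ly86 libraries and 11.9, 7.73, 53.0, 25.3 and 18.9 TPM in the Vector libraries. The first piece of Vector tumor 2 was again the highest, and the groups overlapped (difference 0.46, SE 0.44, adjusted p = 0.732, limma). Leaving out Vector tumor 1 gave 0.0070, and leaving out Vector tumor 2 gave 0.92. H2ac18 was at 0, 6.02, 9.83, 3.16 and 7.41 TPM in the Ly86 libraries and 0.37, 4.05, 6.63, 1.74 and 0 TPM in the Vector libraries. It had the largest difference of the 19 genes, 1.3 (SE 0.63, adjusted p = 0.498, limma), with overlapping groups and a 0 in each; it was 0.70 without Vector tumor 3 and 2.44 with array weights. Taken as 1 sum, the 2 genes differed by 0.60 (SE 0.53, 1.51-fold), and by 0.22 to 1.05 over the alternatives. Their sum rose from 19.4 to 56.4 TPM in Ly86 tumor 1 and fell from 59.6 to 27.0 TPM in Vector tumor 2, as the H2ac sum did. In Vector tumor 1 it went the other way, from 12.2 to 11.8 TPM, while the H2ac sum went from 32.6 to 34.4 TPM.

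H2ac12, an H2A gene paired with H2bc12, was at 3.58, 1.63, 2.38, 4.44 and 0 TPM in the Ly86 libraries and 0, 0.83, 0, 0 and 1.20 TPM in the Vector libraries. Ly86 tumors 1 to 3 were above all Vector tumors and Ly86 tumor 4 was listed at 0. The difference was 0.97 (SE 0.58, adjusted p = 0.570, limma). Without Ly86 tumor 4 it was 1.47, with an unadjusted p of 0.00605 and an adjusted p of 0.690 (limma), and over all alternatives it ran from 0.23 to 1.93. Since H2ac12 passed the filter of 1 TPM only through the Ly86 tumors, its sign and these p-values are not independent of that filter. H2ac13 differed by 0.43 (SE 0.52), H2ac11 by 0.057 (SE 0.49) and H2ac8 by -0.097 (SE 0.29).

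H2bc4, an H2B gene, was at 71.2, 65.0, 83.2, 59.6 and 75.5 TPM in the Ly86 libraries and 52.3, 53.4, 54.5, 65.2 and 60.5 TPM in the Vector libraries. Ly86 tumors 1, 2 and 4 were above every Vector tumor, and Ly86 tumor 3 was below Vector tumors 2 and 3. The means were 6.17 ± 0.20 (SD, n = 4) and 5.87 ± 0.10 (SD, n = 3), a difference of 0.30 (SE 0.13, unadjusted p = 0.0508, adjusted p = 0.464, limma). The pieces of a tumor lay close together, with log2 steps of -0.13, 0.028 and 0.26 in Ly86 tumor 1, Vector tumor 1 and Vector tumor 2, while those of H2ac19 were 1.33, -0.56 and -1.04. In Ly86 tumor 1 and Vector tumor 2 the H2bc4 steps were opposite in sign to those of the macrophage and fibroblast sums.

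H2bc21, the second most abundant H2B gene, was at 9.93, 10.8, 10.01, 8.34 and 10.8 TPM in the Ly86 libraries and 13.8, 14.5, 4.72, 10.9 and 12.4 TPM in the Vector libraries. The first piece of Vector tumor 2 was the lowest library and the other 4 Vector libraries were the highest, so the groups overlapped (difference -0.13, SE 0.22, adjusted p = 0.879, limma). Without Vector tumor 2 the difference was -0.39, with an unadjusted p of 0.0421 and an adjusted p of 0.267 (limma). H2bc8 was at 1.56, 2.51, 1.28, 1.13 and 2.96 TPM in the Ly86 libraries and 1.33, 1.76, 8.99, 7.72 and 2.61 TPM in the Vector libraries. Both pieces of Vector tumor 2 were far above the rest, which gave a difference of -0.68 (SE 0.45, adjusted p = 0.616, limma), or -0.13 without that tumor and -1.07 without Vector tumor 1. H2bc12 was at 0, 1.96, 0, 0.44 and 1.96 TPM in the Ly86 libraries and 1.26, 1.26, 3.64, 0.53 and 1.46 TPM in the Vector libraries (difference -0.58, SE 0.38, adjusted p = 0.609, limma). The remaining tested H2B genes, H2bc11 and H2bc18, differed by -0.33 (SE 0.62) and 0.10 (SE 0.46).

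The estimates for the head-to-head pairs had different signs or sizes on their sides, with large errors. H2bc8 and H2ac8 differed by -0.68 (SE 0.45) and -0.097 (SE 0.29). H2bc11 and H2ac11 differed by -0.33 (SE 0.62) and 0.057 (SE 0.49), and H2bc12 and H2ac12 by -0.58 (SE 0.38) and 0.97 (SE 0.58). H2bc12 passed the filter through the Vector tumors and H2ac12 through the Ly86 tumors, so their opposite signs are not independent of it. Whether the sides of a pair differ was not tested. The mean levels, H2bc gene before H2ac gene, were 2.84 and 2.704 TPM for H2bc8 and H2ac8. They were 1.72 and 1.71 TPM for H2bc11 and H2ac11, and 1.17 and 1.58 TPM for H2bc12 and H2ac12. The other 2 pairs were too low to be tested: H2bc22 and H2ac22 had means of 0.0093 and 0.251 TPM, and H2bc23 and H2ac23 had means of 0.116 and 0.11 TPM. H2bc22 was above 0 in 1 library and H2ac22 in 2, so their means cannot be compared.

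The H3 genes were low throughout. H3c8 was at 2.13, 1.4, 1.78, 1.02 and 4.17 TPM in the Ly86 libraries and 1.00, 0.98, 1.14, 1.61 and 1.54 TPM in the Vector libraries (difference 0.39, SE 0.34, adjusted p = 0.709, limma), with Ly86 tumor 4 the highest; without it the difference was 0.12. H3c3 was at 2.28, 0.94, 1.01, 0.48 and 0.53 TPM in the Ly86 libraries and 1.47, 3.00, 3.19, 2.24 and 1.07 TPM in the Vector libraries. Ly86 tumors 2, 3 and 4 were below all Vector tumors and Ly86 tumor 1 lay among them, with a difference of -0.65 (SE 0.32, adjusted p = 0.499, limma).

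Of the H4 genes, H4c9 was the most abundant, at 12.3, 13.0, 13.7, 14.8 and 6.85 TPM in the Ly86 libraries and 14.2, 11.3, 10.7, 9.51 and 10.4 TPM in the Vector libraries. Ly86 tumors 2 and 3 were above every Vector tumor, Ly86 tumor 1 lay among them and Ly86 tumor 4 was the lowest, which left a difference of 0.065 (SE 0.25, adjusted p = 0.953, limma). H4c8 was at 2.42, 2.67, 7.38, 2.29 and 4.05 TPM in the Ly86 libraries and 3.00, 3.46, 3.58, 1.09 and 3.64 TPM in the Vector libraries (difference 0.26, SE 0.35, adjusted p = 0.826, limma). Without Ly86 tumor 2, the high one, the H4c8 difference was -0.014. H4c2 differed by -0.37 (SE 0.38, adjusted p = 0.758, limma) and H4c6 by 0.37 (SE 0.37, adjusted p = 0.749, limma). H4c6 was listed at 0 in Vector tumor 3, and without that tumor its difference was -0.013.

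The genes that surround histone supply lay mostly below 0 (lower in Ly86 tumors on average), while the tested histone genes lay on both sides. Of 30 genes of DNA replication and S phase, 0 passed the adjusted threshold and all 30 were below 0, with a median difference of -0.28. At an unadjusted p under 0.05, 11 of them were lower, against 4.97% of all tested genes, the share to set beside each such count in the lists that follow. All 30 were below 0 in the other settings too, except for 1 gene above 0 with array weights and 1 without Vector tumor 1. Mcm2, a subunit of the replicative helicase, was at 194, 142, 156, 159 and 179 TPM in the Ly86 libraries and 251, 275, 161, 237 and 254 TPM in the Vector libraries (difference -0.51, SE 0.12, adjusted p = 0.437, limma). The first piece of Vector tumor 2 was the Vector library that overlapped the Ly86 ones. Cdt1, which loads the helicase, differed by -0.48 (SE 0.10, adjusted p = 0.437, limma). This list was chosen with earlier results of these data known, so its direction is not independent evidence.

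**Figure D5:**
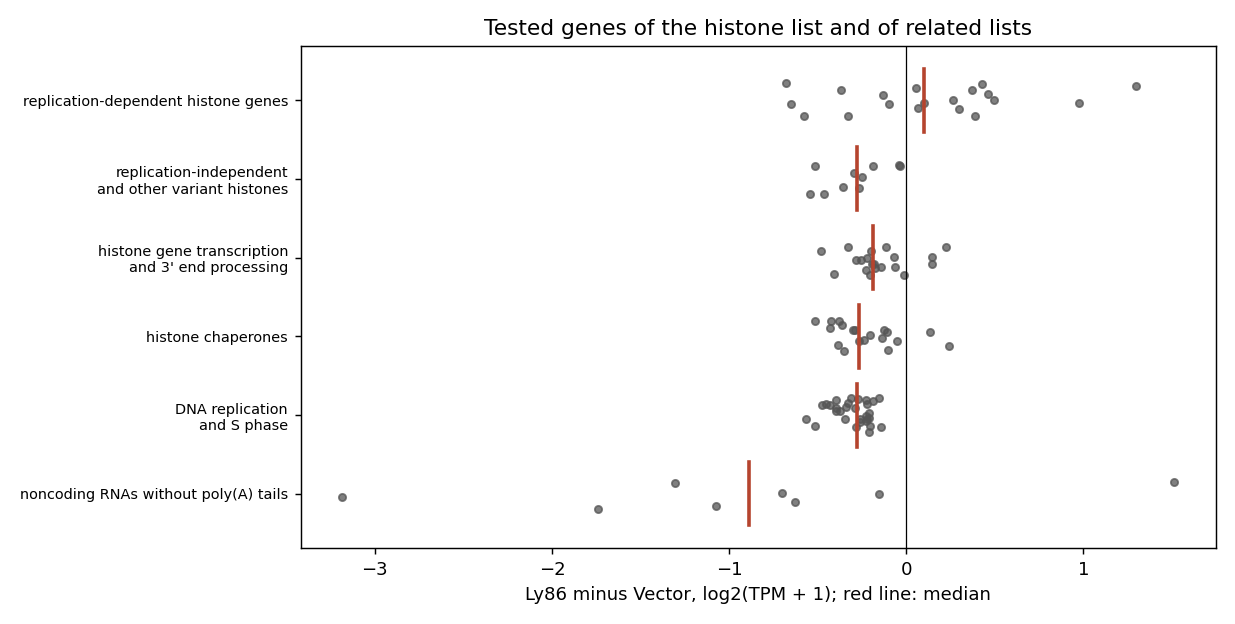
Differences of log2(TPM + 1), Ly86 minus Vector, of each tested gene (points, spread vertically for clarity) among the histone genes and in the related gene lists, with the median of each list as a red line. The replication genes all lie below 0, with a median of -0.28, and the tested histone genes lie on both sides, with a median of 0.10.

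Of 19 tested histone chaperones, which carry histones to DNA, 17 were below 0 and 2 above (15 and 4 without Ly86 tumor 2), with a median of -0.27, and 3 were lower at an unadjusted p under 0.05. Chaf1b, a subunit of the CAF-1 complex that places new H3 and H4 behind the replication fork, differed by -0.42 (SE 0.096, adjusted p = 0.437, limma). Ssrp1, a subunit of the FACT complex, differed by -0.35 (SE 0.11, adjusted p = 0.437, limma). Of 10 tested replication-independent and other variant histones, whose mRNAs are mostly polyadenylated, all 10 were below 0 (9 with median-of-ratios scaling or quantile normalization, and 8 with the first pieces only or without Ly86 tumor 4) and 3 were lower at an unadjusted p under 0.05, with a median of -0.28. H1f0, a linker histone of non-dividing cells, was at 225, 199, 183, 217 and 182 TPM in the Ly86 libraries and 365, 371, 189, 340 and 259 TPM in the Vector libraries (difference -0.54, SE 0.15, adjusted p = 0.437, limma), and its tumors did not overlap. Macroh2a1, an H2A variant of silent chromatin, differed by -0.25 (SE 0.090, adjusted p = 0.441, limma). H1f2 was the only linker histone gene of the histone clusters that was tested. It was at 45.0, 57.9, 72.0, 30.0 and 39.2 TPM in the Ly86 libraries and 26.7, 27.0, 72.3, 78.7 and 39.4 TPM in the Vector libraries, and both pieces of Vector tumor 2 were above every Ly86 library (difference 0.080, SE 0.38, adjusted p = 0.963, limma).

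Of 20 tested genes of histone gene transcription and 3′ end formation, 17 were below 0 and 3 above (16 and 4 with median-of-ratios scaling or quantile normalization, 13 and 7 with the first pieces only, and 14 and 6 without Ly86 tumor 2 or without Vector tumor 1), with a median of -0.19, and 2 were lower at an unadjusted p under 0.05. Slbp was at 73.8, 71.0, 65.9, 79.0 and 80.0 TPM in the Ly86 libraries and 81.6, 85.2, 59.5, 65.5 and 80.6 TPM in the Vector libraries. The Ly86 range lay inside the wider Vector range and the difference was -0.015 (SE 0.13, adjusted p = 0.983, limma), with a sign that turned under both other scalings. Npat was at 12.1, 11.9, 14.3, 9.69 and 11.6 TPM in the Ly86 libraries and 11.1, 13.6, 14.4, 16.1 and 13.7 TPM in the Vector libraries (difference -0.20, SE 0.16, adjusted p = 0.675, limma). Casp8ap2, a cofactor of histone gene transcription, differed by 0.15 (SE 0.32), Lsm10 by 0.22 (SE 0.14) and Lsm11 by -0.22 (SE 0.17). The 2 with the smallest p, Snrpb and Snrpf, encode Sm proteins that sit in the U7 particle and also in the spliceosome; they differed by -0.41 (SE 0.13) and -0.48 (SE 0.20).

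Noncoding RNAs that carry no poly(A) tail were looked at as transcripts that poly(A) selection should also remove. Of 8 tested, 7 were below 0 and 1 above (5 and 3 without Vector tumor 3), with a median of -0.89, and 2 were lower at an unadjusted p under 0.05. Snora73a, Snora73b and Scarna6 were listed at 0 in every Ly86 library. They reached the mean of 1 TPM needed for testing through Vector libraries alone, so they could only lie below 0. Their direction is therefore not evidence, and they enter the counts and the median. The 12 chosen summed to 1.35 to 20.3 TPM in Ly86 libraries and 23.6 to 84.2 TPM in Vector libraries, with 1 to 4 and 2 to 6 of them above 0, and Rny1, Rny3 and Rnu7 were not in the table. Rpph1, the RNA of ribonuclease P, was at 0, 2.23, 3.69, 0 and 0 TPM in the Ly86 libraries and 8.12, 18.4, 12.3, 21.5 and 15.1 TPM in the Vector libraries. No Ly86 library reached the lowest Vector library, and the difference was -3.18 (SE 0.52, adjusted p = 0.393, limma). Without Ly86 tumor 2 it was -3.67 (adjusted p = 0.0479, limma). Snora73a, a small nucleolar RNA, was listed at 0 in the Ly86 libraries and at 25.5, 0, 51.7, 0 and 0 TPM in the Vector libraries. Rmrp, the RNA of ribonuclease MRP, differed by -1.3 (SE 0.78, adjusted p = 0.572, limma). Rn7sk, which holds the elongation factor P-TEFb inactive, differed by 1.51 (SE 0.85, adjusted p = 0.556, limma). The part of poly(A) selection in the histone values was not tested.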

How the data were processed

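RNA from 10 tumor libraries was sequenced as polyadenylated RNA on an Illumina NovaSeq, per the labels. The submitters' processing notes name STAR 2.7.10b, RSEM 1.3.3 and the build mm39; the annotation and any filters are not given in the sources used here. The values the authors deposited are on a log2 scale: raised to a power of 2, less 1, they gave multiples of 0.01 TPM for 99.9% of values (to within 1e-04 hundredths) and sums of 994679 to 996446 per library, so they were read as log2(TPM + 1). Depth is unknown. Log2 values of the 2 pieces of a tumor were averaged, leaving 4 Ly86 and 3 Vector tumors as replicates. Genes whose mean TPM over the tumors was 1 or more, 14556 in all, entered limma 3.58.1 (lmFit and eBayes with trend, R 4.3.3), with Benjamini-Hochberg adjustment over all of them and a threshold of 0.05. The design had foreseen TPM values; the test was kept, without a log transform of its own. The script was tested on simulated data. Class sums (sums of TPM) got differences and standard errors but no test.

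The histone genes, the gene lists and the rules were chosen with earlier results of these data known. Genes were named by rule: in each class the 3 tested genes with the smallest unadjusted p and the most abundant one, in each other list the 2 with the smallest p, and Slbp, Npat, Casp8ap2, Lsm10, Lsm11, Rpph1, Rmrp and Rn7sk; other histone genes were named after their values were seen. Transcripts came from GENCODE M21 and promoters from RefSeq (GRCm38.p6), joined by gene number. A planned comparison of the histone proteins was not run. Alternatives covered pseudocounts, scaling, filters, pieces, the variance model, array weights, a block by tumor number and leaving out each tumor; 1 alternative, a fit in which Vector tumor 2 is its second piece alone, was chosen after seeing the data.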

Additional observations from a re-analysis of the deposited data

Results flagged for a closer look

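Rmrp, the RNA of ribonuclease MRP, had a value of 1.88 on the log2(TPM + 1) scale in Ly86 tumor 1, while the other 3 Ly86 tumors were at 0; the value came from the second piece of that tumor (12.5 TPM), and the first piece was listed at 0. The gap exceeded Dixon's 95% limit for 4 samples. With the other 3 tumors tied at 0, any value above 0 would have exceeded it, so the flag says nothing about the size of the value. It was the only gap past the limit among 36 groups of tumors examined (the named genes and the histone class sums in the 4 Ly86 tumors). Chance gives about 1 in 20 for values without such ties.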

How the results depend on the processing

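Over the alternatives, 311 values of the class sums, list medians and counts moved by less than their spread or by less than 1.5 times, and 31 moved by more. Array weights, which gave Vector tumor 3 a weight of 22.8 against at most 0.946 for any other tumor, put 3 histone genes past the adjusted threshold (H2ac25, H2ac18 and H4c6) and 1832 of all genes (12.6%), and 4 histone genes higher at an unadjusted p under 0.05. That last count was 2 with median-of-ratios scaling, with quantile normalization, with the second piece only, without a filter, with robust eBayes and with Vector tumor 2 as its second piece alone, was 3 with 10 libraries and tumor as a random block, and ran from 1 to 2 when each tumor was left out. Over all genes the share at an unadjusted p under 0.05 in either direction moved too, from 10.8% to 33.6% with array weights, 22.8% with the second piece only and 20.7% with Vector tumor 2 as its second piece alone. The count lower at an unadjusted p was 1 with quantile normalization, the second piece only, no filter and eBayes without trend, and 0 to 1 when each tumor was left out. The median difference of the tested histone genes was 0.30 with a pseudocount of 0.1 and 0.30 with a mean TPM of at least 5, which left 5 histone genes. The chaperone median was -0.18 with the first piece only and -0.32 to -0.18 when each tumor was left out, and the replication median -0.42 to -0.17. The median of the noncoding RNAs was -1.67 with a pseudocount of 0.1, -2.46 with a mean TPM of at least 5, and -1.19 to -0.86 when each tumor was left out. A mean TPM of at least 5 left only 2 of them, Rpph1 and Snora73a. The H2bc sum differed by -0.27 without H2bc4. The cause of these shifts was not tested.

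Differences of some named genes changed sign in some setting. H4c9 was at -0.021 with the first piece only. Slbp was at 0.021 with median-of-ratios scaling, 0.037 with quantile normalization and 0.025 with the first piece only. Casp8ap2 was at -0.022 with the second piece only and -0.61 with array weights, and Snora73a at 0 with the second piece only. When each tumor was left out in turn, the difference ran from -0.013 to 0.62 for H4c6, -0.014 to 0.44 for H4c8, -0.044 to 0.29 for H4c9, -0.25 to 0.48 for H1f2, -0.14 to 0.062 for Slbp and -0.18 to 0.55 for Casp8ap2.

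Tumors with the same number in both groups did not deviate together: the correlations of their deviations were -0.17, -0.11 and -0.31 for numbers 1, 2 and 3, so the numbers were not taken to pair tumors. With the tumor number as a replicate block, 0 histone genes passed the adjusted threshold, the H2ac sum differed by 0.60, all 54 genes by 0.29 and H2ac25 by 0.49 (unadjusted p = 0.0696, limma). The 1 histone gene higher at an unadjusted p under 0.05 with the block was H2ac12 (difference 1.47, unadjusted p = 0.00671, limma). Ly86 tumor 4, where H2ac12 was listed at 0, has no Vector tumor of its number, so the block takes it out of the comparison. The H2ac12 difference was thus the same as without that tumor. With the block 8 of the 10 tested variant histones were below 0. In all 645 genes had an unadjusted p under 0.05, against 1565 without the block and 988 without Ly86 tumor 4 (limma). The unknown depth limits the low genes, many of which were listed at 0 in some libraries.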
